A study of Mus musculus with 12 samples.

Results

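The 10 genes described here encode subunits of the Polycomb repressive complexes of mouse embryonic stem (ES) cells. They were chosen by symbol, and they are 10 of the 54446 genes listed in each of 12 RNA-seq libraries. Values are TPM, a measure of transcript abundance scaled to the same total in every library. All 10 were tested, along with the other genes whose TPM averaged 1 or more over the libraries, 15727 in all. Ezh2, Eed and Suz12 form the core of Polycomb repressive complex 2 (PRC2), and Jarid2 and Mtf2 are its accessory subunits. Cbx7 belongs to canonical PRC1. Pcgf6, E2f6, Mga and L3mbtl2 belong to the variant complex PRC1.6.

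Wild-type KH cells and DNMT3ABKO cells, in which both de novo DNA methyltransferases Dnmt3a and Dnmt3b are knocked out, received INK128 and were collected before it (0 h) and after 72 and 144 h, which gave 6 groups of 2 libraries. INK128 inhibits the mTOR kinase (mTORi) and brings ES cells into a paused state used as a model of embryonic diapause. With spike-in normalization, the study reported global repression of the transcriptome under mTORi, and lower global transcription in Dnmt3a/b knockout cells too. TPM do not carry such a drop. Rises and falls below are therefore relative to the other transcripts of a library. GEO labels put the name E14 before both lines, while the methods of the study name the wild type KH2 and state that KH2 and Dnmt3a/b knockout cells grew on mitomycin-treated feeders, which are growth-arrested fibroblasts. Each genotype is represented by 1 line, and the libraries include no culture left untreated for 72 or 144 h, so treatment and time in culture cannot be told apart. The labels do not say whether replicates came from separate cultures. The study states that each of its experiments was repeated independently, at least 2 times. The p-values measure the spread between these libraries, whose cultures are not described individually.

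PRC2 places methyl groups on lysine 27 of histone H3. Ezh2 is its catalytic subunit, Eed binds the finished mark and stimulates the enzyme, and Suz12 holds the core together. PRC1 places ubiquitin on histone H2A through Ring1 or Rnf2. Its canonical form contains a Cbx protein that reads the PRC2 mark, whereas variant forms contain other Pcgf proteins and are brought to DNA in other ways. PRC1.6 recognizes promoters through the DNA-binding proteins E2f6 and Mga, and it is known in ES cells for silencing genes of the germline and of meiosis.

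The libraries carried the markers of ES cells. The summed TPM of 12 ES cell markers ranged from 4790 to 5151 before treatment, against 7010 to 7524 in treated libraries. In the responses of KH at 72 and 144 h and of DNMT3ABKO at 72 and 144 h, 11, 11, 11 and 9 of the 12 rose. In each DNMT3ABKO response 1 of them fell. Across all tested genes, 28.3%, 27.4%, 34.3% and 31.4% rose in these responses and 19.5%, 23.9%, 21.6% and 26.2% fell. Dnmt3b stood at 255 and 258 TPM in KH and at 26.2 and 27.5 TPM in DNMT3ABKO cells at 0 h, and Dnmt3a at 57.7 and 54.7 against 11.6 and 7.35 TPM. Markers of other cells changed along with the treatment. The summed TPM of 15 fibroblast markers was 1952 to 2218 before treatment, 484.9 to 650.8 after 72 h and 116.3 to 132.1 after 144 h, and 14 of 14 tested fibroblast markers fell in both lines. The sum of 10 macrophage markers was 247.5 to 305.8 before treatment and 20.51 to 36.27 after 144 h, where C1qb was listed at 0 in both KH libraries, and 8 to 10 of the 10 fell in each response. The 12 proliferation genes summed to 1856 to 2191 TPM before treatment, 2100 to 2179 after 72 h and 2339 to 2414 after 144 h. In KH cells 5 rose and 1 fell at 72 h, and 5 rose at 144 h. In DNMT3ABKO cells 4 rose and 3 fell, then 5 rose and 2 fell. The part of these shifts in the results below was not tested, and in bulk RNA fewer cells of a type and less RNA per cell cannot be told apart. The replicates of DNMT3ABKO cells at 0 h correlated less (Pearson r = 0.985 over the tested genes) than those of the other groups (0.9935 to 0.9957).

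TPM are divided by transcript length, so levels can be set side by side between genes. Jarid2 was highest in every group by its mean, from 196 TPM in DNMT3ABKO cells at 0 h to 311 TPM in the same line at 72 h, and E2f6 was lowest, from 14.5 to 25.6 TPM. Eed or Mtf2 was next in every group. At 0 h, the values of Cbx7, Ezh2 and Suz12 overlapped with their neighbours in rank in both lines, and they averaged 111, 105.3 and 105.2 TPM in KH cells. By 72 h Cbx7 had moved up to lie beside Mtf2, with means of 200.4 and 201 TPM in KH cells, where the libraries of both genes overlapped. Jarid2 and Eed also overlapped in KH cells at 72 h. The PRC1.6 members L3mbtl2, Pcgf6, Mga and E2f6 took the 4 lowest places in each group, between 14.5 and 93.9 TPM on average. Pcgf6 overlapped with Mga, and L3mbtl2 with Suz12, in DNMT3ABKO cells at 0 h, as did Mga with L3mbtl2 in KH cells at 144 h.

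**Figure D1:**
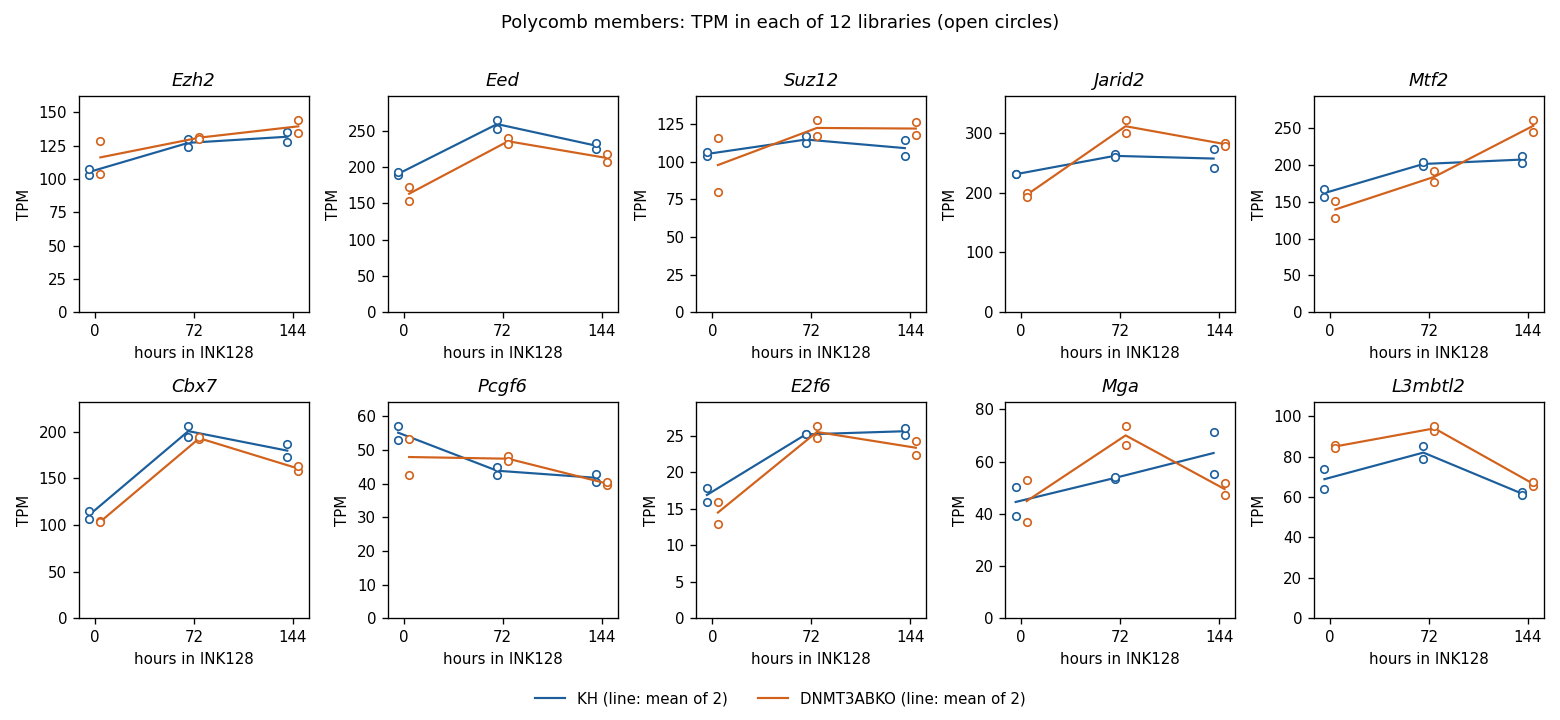
TPM of the 10 Polycomb genes against hours in INK128, with an open circle for each library and a line through the mean of 2 libraries, KH in blue and DNMT3ABKO in orange; all axes start at 0. Cbx7, E2f6 and Eed lie higher at 72 and 144 h than at 0 h in every library of both lines, and Pcgf6 of KH cells lies lower.

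The first question was how the Polycomb genes responded to mTORi. A gene was called when limma's Benjamini-Hochberg adjusted p, taken over all 15727 tested genes, was under 0.05. Fold changes are on the log2 scale of TPM + 1, which understates the change of low genes. In KH cells at 72 h, 6 of the 10 genes rose and Pcgf6 fell. Across all tested genes, 28.3% were called higher and 19.5% lower in that comparison. At 144 h, 6 again rose and Pcgf6 fell, beside 27.4% called higher and 23.9% lower. In DNMT3ABKO cells, 6 genes rose at 72 h, where 34.3% of all tested genes were called higher and 21.6% lower. At 144 h, 6 rose and L3mbtl2 fell, and the background was 31.4% higher and 26.2% lower. The median log2 fold change of the 10 genes was 0.27 and 0.29 in KH cells at 72 and 144 h, beside 0.077 and 0.049 over all tested genes. In DNMT3ABKO cells it was 0.46 and 0.36, beside 0.12 and 0.054. At 72 h the median of the 12 ES cell markers was 0.486 for KH, against 0.393 for the knockout. At 144 h these markers gave 0.464 for KH, against 0.51 for the knockout. The Polycomb median lay below that of the markers in each response other than DNMT3ABKO at 72 h. Whether these sets of genes differ was not tested. Rescaling each library by its median ratio to the other libraries moved the median of all genes at 72 h in DNMT3ABKO cells from 0.12 to 0.0064 on the log2 scale. It also changed the split of calls at 72 h, from 4447 higher and 3073 lower to 3930 and 4321 in KH cells, and from 5397 and 3403 to 4643 and 4664 in DNMT3ABKO cells. With this rescaling, 5 Polycomb genes rose and 1 fell at 72 h in KH cells, and 6 rose and 2 fell at 144 h. In DNMT3ABKO cells, 6 rose at 72 h, and 7 rose and 2 fell at 144 h. Of all 15727 tested genes, the rescaled 144 h comparison of KH called 8810, with 4398 higher against 4412 lower. That of the knockout called 9667, with 4935 higher against 4732 lower. The 72 h and the 144 h comparisons of a line share its 0 h libraries.

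From 72 to 144 h, L3mbtl2 was the 1 member called in KH cells, and it fell, where 7.24% of all tested genes were called higher and 15.6% lower. In DNMT3ABKO cells Mtf2 rose while Cbx7 and L3mbtl2 fell, beside 8.81% higher and 18.5% lower, so the share of members called was near the background. With only the groups compared in the model, 6 members were called in that line, 1 higher and 5 lower. Calls over all tested genes rose as well, to 1989 higher and 3733 lower. In KH cells 2 members were called in this setting, both lower, beside 1839 genes higher and 3406 lower. Median-ratio rescaling moved the split of all calls in this step from 1139 higher and 2458 lower to 2093 and 2443 in KH cells, and from 1385 and 2904 to 2559 and 2791 in DNMT3ABKO cells. Across the 11 contrasts, 36 values of the 10 genes were called, and 20 of these calls held under every alternative and every left-out library.

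**Figure D2:**
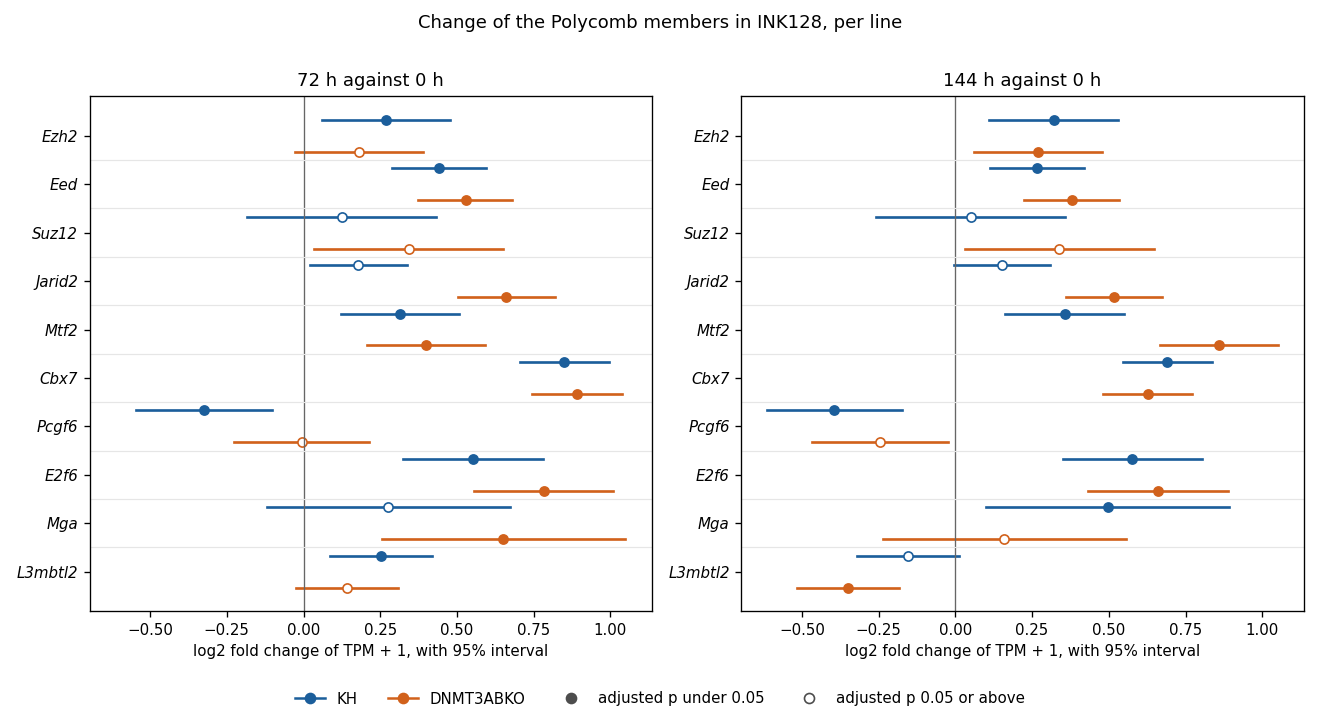
Log2 fold change of TPM + 1 for the 10 Polycomb genes at 72 h (left) and 144 h (right) against 0 h, KH in blue and DNMT3ABKO in orange, with 95% intervals from limma and filled circles for an adjusted p under 0.05. Cbx7 reached 0.85 and 0.89 at 72 h in KH and DNMT3ABKO cells, and Pcgf6 of KH cells is the only filled circle left of 0 at 72 h.

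Among the PRC2 core genes, Eed rose in both lines, Ezh2 rose modestly and Suz12 was not called. Ezh2 (ENSMUSG00000029687.16, mm10 chromosome 6, 47530139 to 47595341, minus strand) gave 103 and 108 TPM at 0 h, 124 and 130.0 at 72 h, then 136 and 128 at 144 h in the 2 libraries of KH cells. In DNMT3ABKO cells it gave 104 and 129, then 132 and 130.3 and lastly 145 and 134 TPM. The treated KH libraries all lay above those at 0 h, and so did the treated DNMT3ABKO libraries, whose replicates at 0 h lay far apart. In KH cells Ezh2 rose by 0.27 ± 0.094 (adjusted p = 0.0374) on the log2 scale at 72 h and 0.32 ± 0.094 (adjusted p = 0.0162) at 144 h, where the value after ± is the standard error. In DNMT3ABKO cells the difference at 72 h was 0.18 ± 0.094 (adjusted p = 0.128), and Ezh2 rose by 0.27 ± 0.094 (adjusted p = 0.0318) at 144 h. The 72 h call in KH cells was lost without filtering and with the replicate number as a block in the model. It was also lost when any of 8 libraries was left out, namely the 6 of KH cells or the 2 of DNMT3ABKO cells at 72 h. Its values ran from 0.17 to 0.30 over the alternatives. The 144 h call in KH cells was lost without replicate 1 of KH at 0 h or at 144 h (range 0.28 to 0.36). In the knockout the 144 h call was lost without filtering, with only the groups compared in the model and with the replicate block. Leaving out replicate 1 of the knockout at 0 h or either replicate at 144 h also removed it (range 0.11 to 0.42).

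Eed (ENSMUSG00000030619.9, chromosome 7, 89954654 to 89980983, minus strand) showed a clearer change, with 189 and 192 TPM at 0 h, 253 and 265 at 72 h, then 225 and 233 at 144 h in KH cells. DNMT3ABKO cells gave 154 and 173, then 239 and 231 and lastly 206 and 218 TPM. No treated library overlapped with the untreated libraries of its line, and in both lines the 72 h libraries were the highest. Eed rose by 0.44 ± 0.069 (adjusted p = 0.000609) at 72 h and 0.27 ± 0.069 (adjusted p = 0.00876) at 144 h in KH cells, and by 0.53 ± 0.069 (adjusted p = 0.000132) and 0.38 ± 0.069 (adjusted p = 0.000947) in DNMT3ABKO cells. Without replicate 2 of KH at 144 h, the 144 h call in KH cells was lost (range over the alternatives 0.23 to 0.29). Its gene overlaps Gm45120 on the same strand, an unclassified transcript with a mean of 3.75 TPM.

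Suz12 (ENSMUSG00000017548.15, chromosome 11, 79993106 to 80034123, plus strand) gave 104 and 106 TPM at 0 h, 112 and 117 at 72 h, then 114 and 104 at 144 h in KH cells. The 72 h libraries of KH lay above those at 0 h, and the 144 h libraries spanned them. In DNMT3ABKO cells it gave 80.1 and 116 TPM at 0 h, then 128 and 117 at 72 h, and 118 and 126 at 144 h. The untreated DNMT3ABKO libraries straddled the KH level, and their spread was the widest seen for this gene. The differences of 0.34 on the log2 scale at both 72 h (95% interval 0.035 to 0.65, adjusted p = 0.0568) and 144 h (adjusted p = 0.0576) in DNMT3ABKO cells were not called, but without replicate 2 of that line at 0 h they were 0.605 and 0.60 and both were called. Median-ratio rescaling also called the 144 h value (0.29, adjusted p = 0.0297). In KH cells the intervals were -0.18 to 0.43 at 72 h and -0.26 to 0.36 at 144 h.

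The accessory subunits bring PRC2 to CpG-rich promoters, and the response of each was called different between the lines at 1 time point. Jarid2 (ENSMUSG00000038518.15, chromosome 13, 44729474 to 44921643, plus strand) gave 230.9 and 230.4 TPM at 0 h, 264 and 259 at 72 h, then 273 and 240.2 at 144 h in KH cells, against 199 and 193, then 299.6 and 322 and lastly 284 and 278 TPM in DNMT3ABKO cells. The knockout libraries lay below those of KH at 0 h and above them at 72 and 144 h, with no overlap. Jarid2 rose by 0.66 ± 0.070 (adjusted p = 3.61e-05) at 72 h and by 0.52 ± 0.070 (adjusted p = 0.00014) at 144 h in DNMT3ABKO cells, both kept under every alternative. The corresponding differences in KH cells were 0.18 (adjusted p = 0.0589) and 0.15 (adjusted p = 0.0973).

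Mtf2 (ENSMUSG00000029267.17, chromosome 5, 108065674 to 108109004, plus strand), a Polycomb-like protein that binds unmethylated CpG-rich DNA, gave 156 and 168 TPM at 0 h, 199 and 204 at 72 h, then 212 and 202 at 144 h in KH cells. DNMT3ABKO cells gave 128 and 151, then 191 and 177 and lastly 245 and 262 TPM. All treated libraries lay above the untreated ones of their line, and the 2 knockout libraries at 144 h were the highest of the 12. Mtf2 rose by 0.31 ± 0.086 (adjusted p = 0.0134) and 0.36 ± 0.086 (adjusted p = 0.00635) in KH cells and by 0.40 ± 0.086 (adjusted p = 0.0031) and 0.86 ± 0.086 (adjusted p = 1.75e-05) in DNMT3ABKO cells, where it also rose from 72 to 144 h by 0.46 ± 0.086 (adjusted p = 0.00312). The call in KH cells at 72 h was lost without replicate 1 at 0 h or either replicate at 72 h (range 0.215 to 0.37), and the other 4 calls held throughout. Mtf2 overlaps Tmed5 (mean 15.8 TPM) on the opposite strand, and whether strand was used in quantification is not given in the sources used here.

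Cbx7, the Cbx protein of canonical PRC1 that predominates in ES cells, changed most among the 10 genes at 72 h. This gene (ENSMUSG00000053411.16, chromosome 15, 79915807 to 79971119, minus strand) gave 107 and 115 TPM at 0 h, 206 and 194 at 72 h, then 173 and 186 at 144 h in KH cells, and 104 and 103, then 192 and 194 and lastly 157 and 163 TPM in DNMT3ABKO cells. The lowest treated library, at 157 TPM, was well above the highest untreated one, at 115 TPM. The increase in KH cells was 0.85 ± 0.065 (adjusted p = 8.1e-06) at 72 h, a ratio of 1.81 between the mean TPM, and 0.69 ± 0.065 (adjusted p = 1.75e-05) at 144 h. In DNMT3ABKO cells it was 0.89 ± 0.065 (adjusted p = 3.17e-06), a ratio of 1.86, and 0.63 ± 0.065 (adjusted p = 2.2e-05). These 4 calls held under every alternative. From 72 to 144 h Cbx7 fell by 0.27 ± 0.065 (adjusted p = 0.0131) in DNMT3ABKO cells, a call lost under median-ratio rescaling and without either replicate at 72 h or replicate 1 at 144 h (range -0.29 to -0.19). Cbx7 overlaps Apobec3 (mean 76.5 TPM) on the opposite strand.

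Within PRC1.6, E2f6 rose in both lines at 72 and 144 h, and Mga, the other DNA-binding subunit, was called higher at 1 of these times in each line. Pcgf6 fell in KH cells at both times, whereas L3mbtl2 rose in KH cells at 72 h and fell in DNMT3ABKO cells at 144 h. E2f6 (ENSMUSG00000057469.8, chromosome 12, 16810963 to 16839742, plus strand), an E2F protein without an activation domain, gave 15.9 and 17.8 TPM at 0 h, 25.2 and 25.2 at 72 h, then 25.1 and 26.1 at 144 h in KH cells. DNMT3ABKO cells gave 12.96 and 16.0, then 26.4 and 24.6 and lastly 22.4 and 24.3 TPM, and no treated library fell into the untreated range. E2f6 rose by 0.55 ± 0.10 (adjusted p = 0.0016) and 0.57 ± 0.10 (adjusted p = 0.000997) in KH cells, and by 0.78 ± 0.10 (adjusted p = 0.00013) and 0.66 ± 0.10 (adjusted p = 0.000326) in DNMT3ABKO cells, all kept under every alternative. Mga (ENSMUSG00000033943.15, chromosome 2, 119897228 to 119969581, plus strand), which pairs with Max to bind E-boxes, varied more between replicates. It gave 39.0 and 50.1 TPM at 0 h, 53.3 and 54.1 at 72 h, then 71.3 and 55.2 at 144 h in KH cells, and 36.8 and 52.9, then 73.8 and 66.2 and lastly 47.2 and 51.8 TPM in DNMT3ABKO cells. Mga was called at 144 h in KH cells, with 0.50 ± 0.18 (adjusted p = 0.0385), and at 72 h in DNMT3ABKO cells, with 0.65 ± 0.18 (adjusted p = 0.0106). The first call was lost without filtering and without any of 8 libraries, namely replicate 1 of KH at 0 h or 144 h, both of KH at 72 h and the 4 treated libraries of the knockout (range 0.32 to 0.68). The other was lost without replicate 1 of DNMT3ABKO at 0 h or 72 h (range 0.395 to 0.91).

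Pcgf6 (ENSMUSG00000025050.7, chromosome 19, 47033619 to 47050845, minus strand), the Pcgf protein that defines PRC1.6, gave 53.0 and 57.3 TPM at 0 h, 42.7 and 45.0 at 72 h, then 40.5 and 42.9 at 144 h in KH cells, so that every treated library lay below both untreated ones. It fell by 0.32 ± 0.10 (adjusted p = 0.0217) at 72 h and by 0.39 ± 0.10 (adjusted p = 0.00761) at 144 h. DNMT3ABKO cells gave 42.4 and 53.4, then 48.2 and 46.6 and lastly 39.6 and 40.4 TPM, and the 72 h libraries lay inside the range at 0 h. The differences there were -0.006 (95% interval -0.23 to 0.21, adjusted p = 0.965) and -0.24 (adjusted p = 0.0563). In KH cells the 72 h call was lost without filtering and without replicate 2 at 0 h or either replicate at 72 h (range -0.42 to -0.27), and the 144 h call without replicate 2 at 0 h or replicate 1 at 144 h (range -0.45 to -0.34).

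L3mbtl2 (ENSMUSG00000022394.14, chromosome 15, 81663889 to 81688315, plus strand), a malignant brain tumour domain protein that compacts chromatin, was lowest at 144 h in both lines. It gave 64.0 and 73.6 TPM at 0 h, 85.0 and 79.0 at 72 h, then 62.4 and 60.8 at 144 h in KH cells, and 85.7 and 84.3, then 92.5 and 95.3 and lastly 65.5 and 67.5 TPM in DNMT3ABKO cells. Both libraries at 144 h were below all the others of their line. L3mbtl2 fell from 72 to 144 h by 0.41 ± 0.075 (adjusted p = 0.00387) in KH cells and 0.49 ± 0.075 (adjusted p = 0.000889) in DNMT3ABKO cells, and from 0 to 144 h by 0.35 ± 0.075 (adjusted p = 0.00259) in DNMT3ABKO cells, and these 3 calls held under every alternative. The increase of 0.25 ± 0.075 (adjusted p = 0.0193) in KH cells at 72 h was lost under median-ratio rescaling, with only the groups compared in the model, and without replicate 1 at 0 h or 72 h (range 0.15 to 0.35). The corresponding differences were -0.15 at 144 h in KH cells (adjusted p = 0.11) and 0.14 at 72 h in DNMT3ABKO cells (adjusted p = 0.132).

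The next question was whether loss of Dnmt3a and Dnmt3b changed Polycomb expression. At each time 1 of the 10 members was called, a share near the background or below it. At 0 h L3mbtl2 was higher in DNMT3ABKO cells, by 0.30 ± 0.075 (adjusted p = 0.032), where 4.92% of all tested genes were called higher and 4.14% lower. At 72 h Jarid2 was higher by 0.25 ± 0.070 (adjusted p = 0.0336), beside 9.26% higher and 10% lower, and at 144 h Mtf2 was higher by 0.29 ± 0.086 (adjusted p = 0.0343), beside 11% higher and 15.5% lower. The count at 0 h was not stable when replicate 2 of DNMT3ABKO was left out, which leaves 1 library in that group. Without it the difference of Ezh2 was -0.021, against 0.134 with all libraries. Whether the count then changed more among members than among all tested genes was not tested. With all libraries, among members that were not called, Eed stood at -0.22 (95% interval -0.38 to -0.071, adjusted p = 0.0749) and Jarid2 at -0.23 at 0 h (-0.39 to -0.077, adjusted p = 0.0705). The interval of Cbx7, -0.24 to 0.048 at 0 h and -0.20 to 0.090 at 72 h, was the narrowest of the 10, and that of Mga, -0.40 to 0.40 at 0 h, was the widest. The L3mbtl2 call was lost in 13 of 17 alternatives, among them the removal of any library other than replicate 2 of KH at 0 h and replicate 2 of DNMT3ABKO at 0 h (range 0.205 to 0.40). The Jarid2 call was lost without filtering and without either library of KH at 72 h or any treated library of the knockout (range 0.197 to 0.30), and the Mtf2 call without filtering and without any treated KH library or either knockout library at 144 h (range 0.24 to 0.34). With the replicate number as a block in the model, no member was called in any of these comparisons between lines. That block was fitted separately in each line, so these comparisons set the fitted levels of replicate 1 side by side. They therefore estimate another quantity than the difference of group means, and the lost calls are no measure of stability under blocking.

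The response itself was compared between the lines by an interaction term. At 72 h the response of Jarid2 was larger in DNMT3ABKO cells by 0.48 ± 0.10 (adjusted p = 0.0209), where 3.38% of all tested genes were called higher and 1.86% lower. At 144 h that of Mtf2 was larger by 0.50 ± 0.12 (adjusted p = 0.0318), where 4.89% were called higher and 3.70% lower. The Jarid2 difference at 144 h was 0.37 (95% interval 0.14 to 0.59, adjusted p = 0.0501). Neither call held throughout. That of Jarid2 was lost under median-ratio rescaling and without any KH library at 0 or 72 h or replicate 2 of the knockout at 72 h (range 0.43 to 0.53), and that of Mtf2 without filtering, with only the groups compared, and without any of the 6 KH libraries or the 2 knockout libraries at 144 h (range 0.38 to 0.625). Both calls were also lost with the replicate number as a block in the model. For Cbx7 the difference in response was 0.042 at 72 h (-0.16 to 0.25) and -0.064 at 144 h (-0.27 to 0.14). For Pcgf6 at 72 h it was 0.32 (0.006 to 0.63, adjusted p = 0.266).

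**Figure D3:**
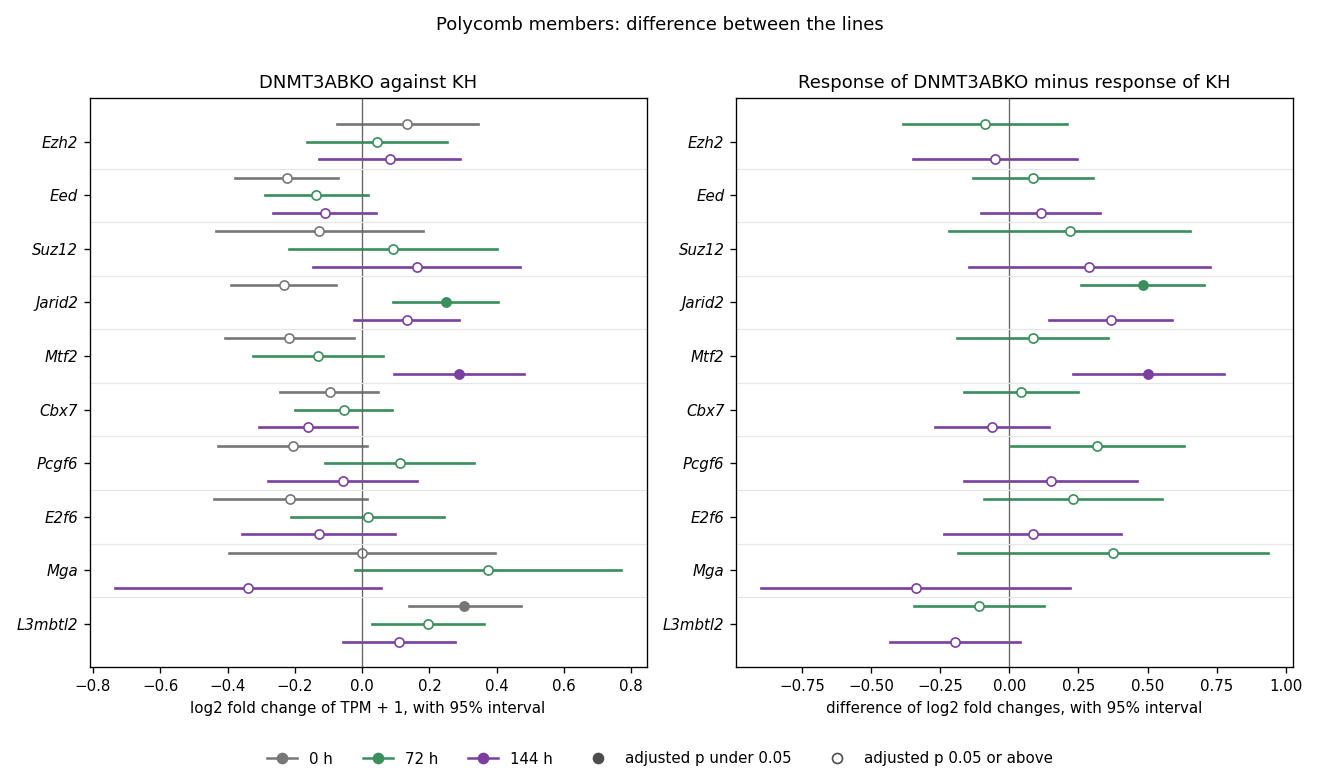
Left, log2 fold change of DNMT3ABKO against KH at 0, 72 and 144 h; right, response of DNMT3ABKO minus response of KH at 72 and 144 h, each with the 95% interval from limma and a filled circle for an adjusted p under 0.05. L3mbtl2 at 0 h (0.30), Jarid2 at 72 h (0.25) and Mtf2 at 144 h (0.29) are filled on the left, and Jarid2 at 72 h (0.48) and Mtf2 at 144 h (0.50) on the right.

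Many Polycomb subunits have paralogs that take the same place in the complex, so the share of each member in the summed TPM of its paralogs was compared. Lines were compared by exact two-sided permutation within time points (216 assignments, smallest possible p = 0.009259), and treated with untreated libraries within lines (225 assignments, smallest possible p = 0.004444), with adjustment over 8 tests. Ezh2 made up 89.3% and 89.6% of Ezh1 plus Ezh2 in KH cells at 0 h, 86.7% and 87.2% at 72 h, then 89.25% and 87.8% at 144 h. In DNMT3ABKO cells it made up 90.7% and 91.0%, then 89.4% and 89.3%, and lastly 90.3% and 89.4%. By exact permutation, the share was 1.675 percentage points higher in DNMT3ABKO cells (p = 0.009259, adjusted p = 0.0185) and fell by 1.485 points with treatment (88.67% against 90.15%, p = 0.0178, adjusted p = 0.0284). Ezh1 itself, the less active methyltransferase found mainly in resting cells, rose in both lines at 72 and 144 h, by 0.39 to 0.59 on the log2 scale, although its calls in DNMT3ABKO cells were lost with only the groups compared in the model.

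Mtf2 made up 90.0% and 89.9% of Phf1, Mtf2 and Phf19 in KH cells at 0 h and 94.4% to 95.1% in the 4 treated libraries, and 87.3% and 89.1% against 94.4% to 96.0% in DNMT3ABKO cells. The shift with treatment was 5.94 points (exact permutation p = 0.004444, adjusted p = 0.0119). Cbx7 made up 73.8% and 73.25% of the 5 Cbx genes of PRC1 in KH cells at 0 h, and 73.0% and 72.6% in DNMT3ABKO cells. It rose to between 78.0% and 81.1% in the 8 treated libraries, a shift of 6.775 points (exact permutation p = 0.004444, adjusted p = 0.0119). The sum of these 5 genes averaged 150.7 TPM at 0 h and 248 TPM at 72 h in KH cells. The share of Pcgf6 fell. It made up 38.2% and 37.7% of the 6 Pcgf genes in KH cells at 0 h, 35.6% and 36.0% in DNMT3ABKO cells at 0 h, whereas treated libraries gave 23.9% to 26.65%. Its share fell by 11.2 points (from 36.9% to 25.7%, exact permutation p = 0.004444, adjusted p = 0.0119), and no treated library came within the range of the untreated ones. The sum of the 6 genes averaged 145.4 TPM at 0 h and 166.0 TPM at 72 h in KH cells, against 133.7 and 181.9 TPM in the knockout, where Pcgf6 itself averaged 47.9 TPM before treatment and 47.4 TPM at 72 h. For these last 3 shares the p is the smallest the permutations can give. Between the lines, the shares of Mtf2 (difference -0.247 points, adjusted p = 0.815) and Cbx7 (0.0914 points, adjusted p = 0.833) were not distinguished. That of Pcgf6 fell by 1.366 points from KH to DNMT3ABKO cells (adjusted p = 0.037), which was lost without replicate 2 of KH at 144 h, of DNMT3ABKO at 72 h or of DNMT3ABKO at 144 h (range -1.557 to -1.175).

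**Figure D4:**
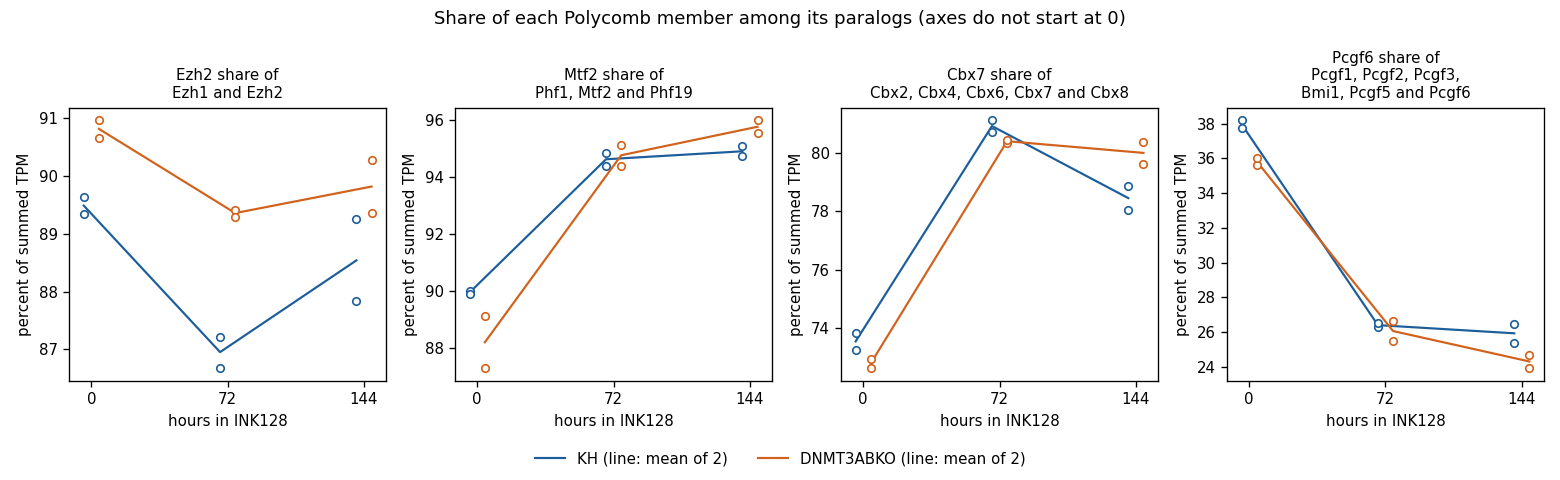
Percent of the summed TPM of a group of paralogs that comes from Ezh2, Mtf2, Cbx7 and Pcgf6, against hours in INK128, with an open circle per library and a line through the mean of 2; the vertical axes do not start at 0. The share of Pcgf6 drops from 35.6% or more at 0 h to 26.65% or less in all 8 treated libraries, while those of Mtf2 and Cbx7 rise.

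The remaining subunits gave the setting of these changes. Of 10 other PRC2 genes, 5 rose and 2 fell in KH cells at 72 h and 6 rose and 3 fell at 144 h, and 4 rose and 2 fell, then 6 rose and 2 fell, in DNMT3ABKO cells. The shares over all tested genes were 28.3% higher and 19.5% lower in KH cells at 72 h and 27.4% and 23.9% at 144 h, against 34.3% and 21.6%, then 31.4% and 26.2%, in the knockout. Phf19, the Polycomb-like paralog of Mtf2, had the lowest value of the 10 in each response. Phf19 gave 11.2 and 12.9 TPM at 0 h, 4.28 and 4.83 at 72 h, then 2.96 and 3.15 at 144 h in KH cells, and 13.2 and 13.2, then 3.97 and 3.80 and lastly 2.09 and 2.42 TPM in DNMT3ABKO cells, with no overlap between times. It fell by 1.69 ± 0.10 (adjusted p = 8.49e-07) in KH cells and 2.13 ± 0.10 (adjusted p = 8.18e-08) in DNMT3ABKO cells at 144 h. Epop, an accessory subunit that links PRC2 to Elongin, gave 210.5 and 209.8 TPM at 0 h and 281 and 279.6 at 144 h in KH cells, against 228 and 182, then 470.2 and 472 TPM in DNMT3ABKO cells. In the latter it rose by 1.20 ± 0.094 (adjusted p = 2.86e-06), a larger response than in KH cells by 0.79 ± 0.13 (adjusted p = 0.00489). The gene listed as AU022751, an alias of the PRC2 inhibitor Ezhip, was low in KH cells at 0 h (0.375 and 0.641 TPM) and higher in DNMT3ABKO cells (2.54 and 2.32 TPM), by 1.19 ± 0.13 (adjusted p = 0.000447).

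Of 22 other PRC1 genes, 21 were tested. In KH cells 9 rose and 5 fell at 72 h and 8 rose and 4 fell at 144 h, and in DNMT3ABKO cells 10 rose and 3 fell, then 8 rose and 5 fell. The shares over all tested genes in these 4 responses were 28.3%, 27.4%, 34.3% and 31.4% higher and 19.5%, 23.9%, 21.6% and 26.2% lower, so several of the counts lie near the background. Pcgf2, a Pcgf protein of canonical PRC1, rose by 0.70 at 72 h and 0.71 at 144 h in KH cells, and by 0.95 and then 0.85 in the knockout. Phc1, the polyhomeotic subunit that joins complexes into larger assemblies, rose from 156 and 166 TPM at 0 h to 292 and 274 at 72 h in KH cells, and from 124 and 141 to 295 and 298 TPM in DNMT3ABKO cells, by 0.81 ± 0.073 (adjusted p = 2.27e-05) and 1.16 ± 0.073 (adjusted p = 1.28e-06). Its paralog Phc2 fell in all 4 responses, by between 0.44 and 0.64. Kdm2b, the CpG-binding subunit of the variant complex PRC1.1, gave 33.3 and 35.7 TPM at 0 h and 75.9 and 76.7 at 72 h in KH cells, and 54.1 and 51.2, then 131 and 140.5 TPM in DNMT3ABKO cells. At 72 h it was higher in DNMT3ABKO cells by 0.82 ± 0.065 (adjusted p = 1.47e-05).

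The 11 other PRC1.6 genes were split, with 2 rising and 4 falling in KH cells at 72 h and 3 and 3 at 144 h, and with 6 and 3, then 5 and 4, in DNMT3ABKO cells. Of these, 4 are also counted among the PRC1 genes above. The shares over all tested genes in the same order were 28.3%, 27.4%, 34.3% and 31.4% higher and 19.5%, 23.9%, 21.6% and 26.2% lower. Several of the counts therefore lie near the background. Tfdp1, a dimerization partner of E2F proteins, gave 179.7 and 207 TPM at 0 h and 120.3 and 128 at 144 h in KH cells, and 142 and 148, then 79.1 and 75.3 TPM in DNMT3ABKO cells. It fell by 0.63 ± 0.076 (adjusted p = 8.65e-05) and 0.90 ± 0.076 (adjusted p = 4.88e-06), and at 144 h it was lower in DNMT3ABKO than in KH cells by 0.68 ± 0.076 (adjusted p = 0.00013). Cbx3, a heterochromatin protein of the complex, fell by 0.54 on the log2 scale in KH and 0.46 in DNMT3ABKO cells at 144 h. Max, the partner of Mga, rose by 0.26 ± 0.058 (adjusted p = 0.00381) in KH cells at 144 h. Of 5 tested genes whose products oppose Polycomb marks, 3 rose in KH cells at 72 h and 4 at 144 h, and 1 and then 3 in DNMT3ABKO cells. The shares of all tested genes called higher were again 28.3%, 27.4%, 34.3% and 31.4%. Kdm6b, a demethylase of the PRC2 mark, rose in all 4, by 0.59 and 1.07 in KH and 0.85 and 1.11 in DNMT3ABKO cells.

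**Figure D5:**
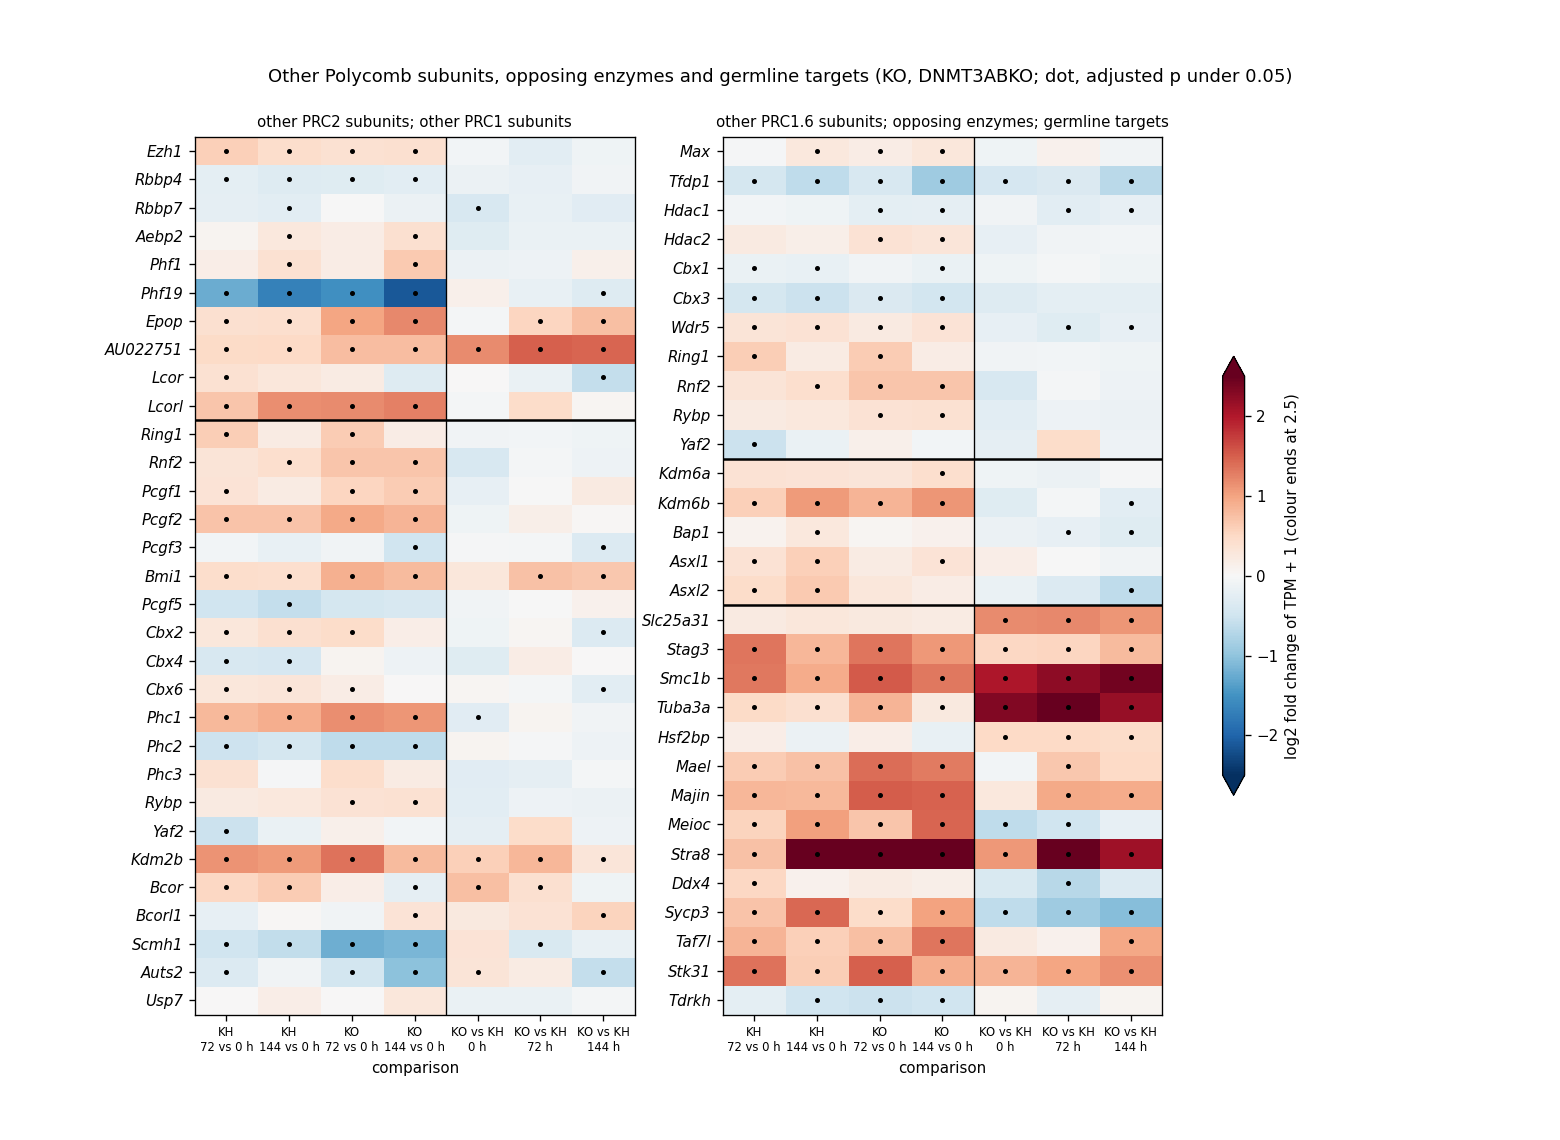
Log2 fold change of TPM + 1 by colour (red higher, blue lower, the scale ends at 2.5 in each direction) for other PRC2 and PRC1 subunits (left) and for PRC1.6 subunits, opposing enzymes and germline targets (right) in 7 comparisons, with a dot for an adjusted p under 0.05. Phf19 and Phc2 are blue and dotted in all 4 responses to INK128, and Smc1b and Stra8 are red and dotted in all 7 columns.

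Genes silenced by these complexes were then examined. Of 14 germline genes reported as PRC1.6 targets, 11 rose in KH cells at 72 h, and 10 rose and 1 fell in each of the other 3 responses. Across all tested genes, 28.3%, 27.4%, 34.3% and 31.4% were called higher in the 4 responses and 19.5%, 23.9%, 21.6% and 26.2% lower. The median log2 fold change was 0.67 at both times in KH cells, and it was 0.79 at 72 h and 1.05 at 144 h in the knockout. Between the lines, 7 were higher and 2 lower in DNMT3ABKO cells at 0 h, then 9 and 3 at 72 h, with 9 and 1 at 144 h. DNA methylation is also known to silence many such genes, and the enzymes that set it anew are knocked out in DNMT3ABKO cells. The part of each layer was not tested. Smc1b, a meiotic cohesin subunit, gave 1.34 and 1.54 TPM at 0 h, 5.19 and 5.0 at 72 h, then 3.49 and 3.82 at 144 h in KH cells, and 8.58 and 9.33, then 28.1 and 27.6 and lastly 21.9 and 25.6 TPM in DNMT3ABKO cells. At 144 h it was higher in DNMT3ABKO cells by 2.41 ± 0.10 (adjusted p = 3.9e-08). Tuba3a, a testis tubulin with a near-identical copy that could share its reads, gave 6.53 and 5.86 TPM in KH and 33.8 and 29.0 TPM in DNMT3ABKO cells at 144 h, a difference of 2.17 ± 0.10 (adjusted p = 7.56e-08). Stra8, the gatekeeper of meiotic entry, gave 1.59 and 1.55 TPM at 0 h and 18.0 and 18.8 at 144 h in KH cells, and 5.23 and 3.72, then 81.8 and 86.1 TPM in DNMT3ABKO cells. It differed between the lines by 2.13 ± 0.12 (adjusted p = 5.54e-07) at 144 h. Sycp3, of the synaptonemal complex, went the other way and was lower in DNMT3ABKO cells at 144 h, by 1.06 ± 0.13 (adjusted p = 0.000219).

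Promoters of Smc1b, Tuba3a and Stra8 are shown because they had the highest called differences between the lines at 144 h among the 14. Each window runs from 250 bases before to 50 bases after the start of the gene in RefSeq (GRCm38.p6), on the strand of the gene, from chr15:85131908-85132207 (minus) for Smc1b, chr6:125286032-125286331 (minus) for Tuba3a and chr6:34920698-34920997 (plus) for Stra8. Capitals mark matches to the E2F motif GCGGGAA or its reverse complement TTCCCGC, or to the E-box CACGTG, which reads the same on both strands.
Smc1b: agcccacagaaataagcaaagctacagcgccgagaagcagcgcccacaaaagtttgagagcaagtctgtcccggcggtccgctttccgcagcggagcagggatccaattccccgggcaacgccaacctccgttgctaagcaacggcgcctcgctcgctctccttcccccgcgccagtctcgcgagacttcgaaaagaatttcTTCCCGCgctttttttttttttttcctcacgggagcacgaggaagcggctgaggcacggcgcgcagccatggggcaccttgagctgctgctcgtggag
Tuba3a: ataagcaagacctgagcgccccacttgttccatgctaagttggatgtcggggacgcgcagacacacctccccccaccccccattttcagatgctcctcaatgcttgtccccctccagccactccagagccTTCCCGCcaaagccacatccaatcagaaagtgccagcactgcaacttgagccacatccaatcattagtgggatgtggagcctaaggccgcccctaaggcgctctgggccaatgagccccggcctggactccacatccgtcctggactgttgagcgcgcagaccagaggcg
Stra8: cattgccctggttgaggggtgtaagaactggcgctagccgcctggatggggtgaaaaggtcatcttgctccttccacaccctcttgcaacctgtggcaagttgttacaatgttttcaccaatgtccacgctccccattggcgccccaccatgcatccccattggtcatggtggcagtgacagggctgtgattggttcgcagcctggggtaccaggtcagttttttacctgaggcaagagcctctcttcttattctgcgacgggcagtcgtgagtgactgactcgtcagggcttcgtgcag

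Smc1b and Tuba3a each held 1 E2F motif and no E-box, and Stra8 held neither. RefSeq windows were found for 13 of the 14 germline genes, as 14 windows in all. The E-box occurred in 8 of them (57.1%) and the E2F motif in 8 (57.1%), with both in 4 (28.6%). The overlapping windows of Stk31 hold the same E-box. Counted by gene, 7 of the 13 held the E-box and 8 the E2F motif. Among all 32851 windows of this length, 7.15% held the E-box, 4.6% the E2F motif and 0.46% both. The 12 windows of the 10 Polycomb genes held no E-box, and the window of Suz12 alone held an E2F motif. The 14 genes were listed as targets of a complex that binds such motifs, so their share is a description.

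Developmental regulators under PRC2 were mostly at low levels. Of 18 listed, 7 passed the filter, and the sum of all 18 was 30.55 to 64.65 TPM over the libraries. In KH cells 2 rose and 4 fell at 72 h and 2 rose and 3 fell at 144 h, and in DNMT3ABKO cells 1 rose and 4 fell, then 2 rose and 3 fell. With 7 genes, 2 higher is a share near the 28.3%, 27.4% and 31.4% of all tested genes called higher in KH at 72 h, KH at 144 h and DNMT3ABKO at 144 h. The shares called lower were 19.5%, 23.9%, 21.6% and 26.2% in the 4 responses. The mesoderm factor T dropped from 18.8 and 18.2 TPM at 0 h to 2.34 and 2.25 at 144 h in KH cells, and from 6.22 and 6.59 to 0.282 and 0.382 TPM in DNMT3ABKO cells. Pax6, a neural factor, went from 1.80 and 2.51 TPM at 0 h to 22.0 and 24.0 at 144 h in KH cells, whereas DNMT3ABKO cells gave 6.84 and 10.1, then 5.28 and 5.55 and lastly 14.3 and 15.2 TPM at 0, 72 and 144 h.

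Members also resembled each other over the 12 libraries, as a description only, since all points share the same 2 lines and 3 times. On the log2 scale, Cbx7 correlated with E2f6 (Pearson r = 0.954) and Eed (0.938), and Eed with E2f6 (0.939), the 3 highest values among all pairs of members, while Pcgf6 and Mtf2 gave the lowest value, -0.587. Among 9616 protein-coding genes that averaged 5 TPM or more, the gene most like Cbx7 was Rad9b (r = 0.991), the one most like E2f6 was Trim24 (0.991), and the one most like Eed was 9430015G10Rik (0.989). Those most like the others were Tpp1 for Mtf2 (0.988), Tgfbr1 for Ezh2 (0.969), Cnbp for Pcgf6 (0.967), Virma for Suz12 (0.962), Usp54 for Mga (0.954), Rffl for L3mbtl2 (0.947) and Dpp4 for Jarid2 (0.943).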

How the data were processed

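RNA-seq values were analysed for all 12 libraries as the TPM tables that the authors deposited, 1 per library. According to the labels and the methods of the study, sorted cells were lysed with ERCC spike-in RNA, ribosomal RNA was depleted, and paired-end reads were trimmed with cutadapt 2.4, aligned with STAR 2.7.3a to mm10 and quantified with StringTie 2.0 (versions as in the submitters' processing notes). Deposited TPM are divided by transcript length and sum to 1000000 in each library with no ERCC rows, so only relative levels can be compared, and the values do not carry the sequencing depth, which was not used here.

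Rows that repeat an identifier (9 to 16 per table) were summed. log2(TPM + 1) values of the 15727 genes with a mean of 1 TPM or more were fitted in limma 3.58.1 (R 4.3.3), using empirical Bayes moderation with a trend and 1 coefficient per group, and p-values were adjusted by Benjamini-Hochberg over all of these genes, per contrast. A count model was not used, because TPM are not counts. Shares of paralogs were tested by exact permutation in Python 3.11.15 with NumPy 2.4.6 and pandas 2.3.3. Promoter windows are those of RefSeq for GRCm38.p6. Both procedures were tested on simulated data.

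The 10 genes, the gene lists and the tests were chosen with earlier results of these data known. In each list, at most the 3 highest and 3 lowest genes by log2 fold change were named per contrast, among those called and without overlap between the groups, together with the paralogs in a share. The settings varied were the pseudocount (0.1 TPM), the filter (none), scaling by median ratios, a model with only the groups compared, a replicate block, and leaving out each library in turn. Deposited identifiers numbered 54446, of which 54409 were found in GENCODE M21 and 53492 at the same coordinates.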

Additional observations from a re-analysis of the deposited data

Results flagged for a closer look

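The following genes were singled out because their response to INK128 differed between the lines in the interaction test (limma, adjusted over all 15727 tested genes; response of DNMT3ABKO minus response of KH, log2 scale). Among the 10 Polycomb genes these were Jarid2 at 72 h (0.482, adjusted p = 0.0209) and Mtf2 at 144 h (0.503, adjusted p = 0.0318). Among other PRC2 subunits, Epop gave 0.575 at 72 h (adjusted p = 0.0358) and 0.79 at 144 h (adjusted p = 0.00489), and the 72 h value was lost in 14 of 17 alternatives.

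Among other PRC1 subunits, Bcor of PRC1.1 gave -0.858 (adjusted p = 0.000553) and Auts2 gave -0.936 (adjusted p = 0.000691), both at 144 h. Scmh1 gave -0.717 at 72 h (adjusted p = 0.0114) and -0.525 at 144 h (adjusted p = 0.034). The Scmh1 value at 72 h was lost without KH replicate 1 or DNMT3ABKO replicate 2 at 72 h, with a range of -0.802 to -0.632.

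Among germline targets, Stra8 gave 1.767 at 72 h (adjusted p = 0.00058) and 1.051 at 144 h (adjusted p = 0.00404), and Taf7l gave 0.742 at 144 h (adjusted p = 0.0229). Among developmental regulators, Eomes gave 0.73 at 144 h (adjusted p = 0.0269), and Pax6 gave -2.017 at 72 h (adjusted p = 0.00127) and -2.184 at 144 h (adjusted p = 0.000207). The call of Taf7l was lost in 7 alternatives and that of Eomes in 6. Dixon's test for single samples was not run, since each group holds 2 libraries.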

How the results depend on the processing

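Of the 36 calls of Polycomb genes, 20 held in all 17 alternatives; the cause of the losses was not tested. With only the groups compared in the model, the number of members called was 2 for KH 144 against 72 h, 6 for DNMT3ABKO 144 against 72 h, 0 and 3 between lines at 0 and 72 h, and 0 for the 144 h difference in response. In the same order, 5245, 5722, 303, 5143 and 757 of the 15727 tested genes were called. Without the filter the number of members called was 0 between lines at 0, 72 and 144 h and 0 for the 144 h difference in response. With median-ratio scaling it was 2 between lines at 72 h and 0 for the 72 h difference in response.

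With the replicate number as a block, the number of members called was 0 in all 3 comparisons between lines and in both differences in response. The block was fitted per line, so the comparisons between lines then refer to replicate 1 and not to the group means. The median log2 fold change of all genes between lines at 0 h moved from -0.0547 to -0.0678. Responses within a line and their differences keep their meaning under this block. The calls of Ezh2 in KH cells at 72 h and in DNMT3ABKO cells at 144 h were lost too. Deviations of equal replicate numbers within a line correlated between -0.104 and 0.10. Whether equal numbers pair the samples cannot be told from these correlations. The study states that the time points of a biological replicate were processed in parallel.

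When each library was left out in turn, members called ranged from 3 to 8 (KH 72 h), 4 to 7 (KH 144 h), 1 to 2 (KH 144 against 72 h), 2 to 6 (DNMT3ABKO 144 against 72 h), 0 to 6, 0 to 1 and 0 to 1 between lines at 0, 72 and 144 h, and 0 to 3 and 0 to 4 for the differences in response at 72 and 144 h. The highest and lowest counts came without single libraries, among them DNMT3ABKO 0 h replicate 1, DNMT3ABKO 0 h replicate 2 and KH 72 h replicate 1. Each of these fits leaves 1 library in a group. The shares of all tested genes called in them are not set beside these counts, which therefore do not describe the members alone.

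No called member value changed sign. Values that were not called and changed sign were, with median-ratio scaling, Jarid2 for KH 144 against 72 h (0.031), Suz12 for DNMT3ABKO 144 against 72 h (0.07) and Mga between lines at 0 h (0.06). Left-out libraries gave ranges across 0 for Suz12 (KH 144 h, -0.019 to 0.12; DNMT3ABKO 144 against 72 h, -0.07 to 0.061; lines at 0 h, -0.389 to 0.134; 72 h difference in response, -0.043 to 0.48) and Ezh2 (lines at 0 h, -0.021 to 0.288; differences in response, -0.244 to 0.065 at 72 h and -0.206 to 0.102 at 144 h). The same held for E2f6 (KH 144 against 72 h, -0.002 to 0.049; lines at 72 h, -0.032 to 0.065; 144 h difference, -0.056 to 0.226), Jarid2 (KH 144 against 72 h, -0.121 to 0.065), Mga (DNMT3ABKO 144 h, -0.097 to 0.415; lines at 0 h, -0.257 to 0.255), Mtf2 (72 h difference, -0.037 to 0.207), Cbx7 (72 h difference, -0.013 to 0.097) and Pcgf6 (DNMT3ABKO 72 h, -0.169 to 0.157; 144 h difference, -0.014 to 0.312). Between lines, the share of Mtf2 ranged from -0.552 to 0.05721 points and was 0.02301 as a log2 ratio, that of Cbx7 ranged from -0.04905 to 0.2318 points, and that of Pcgf6 from -1.557 to -1.175 points. TPM give no measure of depth.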
